A study of Mus musculus with 36 samples.

Results

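The major urinary proteins (MUPs) are small secreted proteins of the lipocalin family, and the 9 genes described here, Mup1, Mup2, Mup3, Mup7, Mup11, Mup15, Mup17, Mup20 and Mup21, are the rows of the liver expression table that carry these symbols. They are 9 of 48 rows named Mup, of which 21 are not pseudogenes and 27 are, in a table of 49315 genes. They were picked for their large changes in the vehicle-treated W/F and F/F mice. Every value of the vehicle groups is therefore given as a description without a test. Tests compared the other groups only, although the spread behind each test was estimated from all 36 livers, those on vehicle included. The 36 livers came from male mice of 11 to 12 weeks, 4 in each of 9 groups, and their polyA RNA was sequenced. CRISPR was used to change tryptophan 441 (W) of LXRalpha, a nuclear receptor for oxysterols, to phenylalanine (F), and the genotypes were W/W (homozygous controls), W/F (heterozygous mutants) and F/F (homozygous mutants). Each genotype was held on normal chow, or on a high fat, high cholesterol diet that promotes metabolic dysfunction-associated steatohepatitis (MASH; Teklad TD.96121) for 4 weeks with daily oral gavage in the last 2 weeks of either vehicle or 10 mg/kg of the LXR agonist T0901317. The vehicle and T0901317 mice thus shared the diet and the gavage, whereas the mice on chow were a cohort of their own, so that diet and cohort cannot be told apart. The allele is present in every tissue, as far as the labels say, and because it replaces 1 residue the level of the LXRalpha transcript does not check the genotype labels.

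MUPs are made mainly by hepatocytes, enter the blood and pass into the urine, where they bind and release volatile pheromones and act as scent signals themselves. The liver of male mice makes far more of them than that of females, because pulsatile growth hormone acting through the growth hormone receptor and STAT5B switches on many male-biased genes, with androgen, thyroid hormone and glucocorticoid also needed. Mup20 encodes darcin, the male-specific MUP that attracts females. MUPs in the blood have also been tied to glucose and lipid metabolism.

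The 9 genes lie on the minus strand of chromosome 4 (GRCm38, GENCODE M21 gene models), in the order Mup7, Mup2, Mup1, Mup11, Mup15, Mup17, Mup20, Mup3 and Mup21. Mup7 (ENSMUSG00000073842) spans 60066469 to 60070475 at one end, and Mup21 (ENSMUSG00000066153), from 62147932 to 62150863, lies at the other. Between them are Mup2 (ENSMUSG00000078688, 60135932 to 60154289), Mup1 (ENSMUSG00000078683, 60498012 to 60501960), Mup11 (ENSMUSG00000073834, 60658466 to 60662411), Mup15 (ENSMUSG00000096674, 61435790 to 61439743) and Mup17 (ENSMUSG00000096688, 61591929 to 61595871). Mup20 (ENSMUSG00000078672) lies at 62050234 to 62054158, next to Mup3 (ENSMUSG00000066154) at 62083476 to 62087342.

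The promoter sequences show that these genes fall into close copies and more distant relatives. RefSeq promoter windows of 300 bases (250 before the annotated start and 50 after it, GRCm38.p6, minus strand) were matched for 7 of the 9 genes, all but Mup1 and Mup20. A pair of close copies, Mup15 and Mup17, and the more distant pair Mup3 and Mup21 are shown because the members of each pair moved together in the results below, with the 9 bases TATATAAGG, a TATA-box-like element picked after the sequences were seen, in capitals.
Mup15 promoter, chr4:61439655-61439954: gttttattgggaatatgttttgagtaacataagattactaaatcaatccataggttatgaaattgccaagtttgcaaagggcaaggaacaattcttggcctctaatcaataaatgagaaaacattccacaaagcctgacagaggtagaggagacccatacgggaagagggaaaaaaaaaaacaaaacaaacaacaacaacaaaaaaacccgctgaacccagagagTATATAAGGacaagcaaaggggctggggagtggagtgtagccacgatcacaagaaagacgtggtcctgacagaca
Mup17 promoter, chr4:61595783-61596082: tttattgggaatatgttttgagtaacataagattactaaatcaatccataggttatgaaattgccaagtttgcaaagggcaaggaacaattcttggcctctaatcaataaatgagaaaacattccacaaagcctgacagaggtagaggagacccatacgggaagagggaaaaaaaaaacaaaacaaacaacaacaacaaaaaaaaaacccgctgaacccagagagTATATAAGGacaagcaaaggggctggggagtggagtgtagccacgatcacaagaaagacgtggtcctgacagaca
Mup3 promoter, chr4:62087268-62087567: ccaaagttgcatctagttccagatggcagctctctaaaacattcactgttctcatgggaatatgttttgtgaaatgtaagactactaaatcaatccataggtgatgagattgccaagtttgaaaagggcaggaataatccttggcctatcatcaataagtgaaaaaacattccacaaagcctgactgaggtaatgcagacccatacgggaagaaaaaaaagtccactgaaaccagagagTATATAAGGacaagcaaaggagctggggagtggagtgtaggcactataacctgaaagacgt
Mup21 promoter, chr4:62150792-62151091: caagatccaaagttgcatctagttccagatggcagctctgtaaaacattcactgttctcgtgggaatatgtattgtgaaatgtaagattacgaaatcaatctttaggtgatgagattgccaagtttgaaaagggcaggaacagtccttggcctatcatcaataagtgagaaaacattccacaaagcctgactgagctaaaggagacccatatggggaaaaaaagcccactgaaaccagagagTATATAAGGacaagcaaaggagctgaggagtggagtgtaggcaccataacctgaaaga
The windows of Mup15 and Mup17 were 98.7% identical over the aligned part and those of Mup3 and Mup21 92.9%, whereas Mup17 and Mup3 were 76.9% identical. TATATAAGG was found in 6 of the 7 windows, all but that of Mup7, and on either strand in 101 of 32851 promoters (0.307%). The Mup7 window ends in a stretch that lies before the element in its close copies, Mup15 and Mup17 among them. It therefore cannot show whether Mup7 has the element. Other motifs were also searched on both strands, and none of the 7 windows held any of them: TTCNNNGAA, the STAT motif, is in 8.30% of all promoters, TGTTTAC (FOXA) in 3.65%, AGGTCA repeated in the same direction after a gap of 4 bases, the LXR type of repeat, in 0.0152%, and GTTAAT followed after 1 base by its reverse complement (HNF1) in 0.00913%.

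How far a read can be assigned to 1 gene differs between members. Of all runs of 75 bases in the annotated transcripts, 100% of those of Mup15 also occur in another gene, 81.1% of Mup7, 77.8% of Mup2, 73.7% of Mup11, 68.7% of Mup17 and 57.8% of Mup1. For Mup20 the share is 43.6%, and its only partner is the pseudogene Mup-ps19. Mup21 with 10.3% and Mup3 with 5.44% share runs with each other only. Levels of Mup1, Mup2, Mup7, Mup11, Mup15 and Mup17 are therefore uncertain one by one. The sources used here do not give how reads with several matches were counted. The sum over these 6 genes is also given for F/F and W/W livers on chow and with T0901317. These genes also share runs with Mup genes outside this sum. The closest gene was Mup12 for Mup1, Mup14 for Mup2 and Mup11, and Mup13 for Mup17. For Mup7 and Mup15 it was a gene within the sum. Levels are in TPM (transcripts per 1000000), which correct for gene length but not for reads shared between genes. Comparisons of level between genes, such as shares of the family sum, carry that uncertainty.

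All 9 members, and 16638 genes in all, reached 1 TPM in 4 or more of the 36 libraries and were tested. Library depth, worked out from the steps between low TPM values, was 18.1 to 35.8 M reads (M, 1000000). TPM were not scaled for a shift of the typical gene, and the median of all genes was higher in F/F than in W/W livers by 0.29 on the log2 scale on chow, by 0.70 on vehicle and by 0.43 with T0901317. Hepatocyte markers were abundant in every group, with 8 of 8 above 0 and a summed level between 36412 TPM in an F/F vehicle liver and 113082 TPM in a W/W chow liver. The salivary and lacrimal glands also express Mup genes, and of 5 markers of these glands Bpifa2, Prol1 and Smr3a were at 0 in all 36 livers. Dcpp1 was above 0 only in some F/F livers on chow or vehicle, at up to 0.198 TPM, and Amy1, an amylase gene that the liver also expresses, made up the rest of a summed level of 57.8 to 176 TPM.

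The 9 genes together supplied 3.84 ± 1.26% of all transcripts in W/W livers on chow (mean ± SD, n = 4 mice, as for every mean below). The summed level was 30015, 33401, 57260.4 and 33111 TPM in the 4 W/W chow livers, 44719.7, 40566, 45484 and 57815 TPM in W/F and 39199, 18326, 16122 and 16888 TPM in F/F. Chow F/F livers were below all others on chow but for replicate 1, whose sum lay within the range of the W/W livers. On vehicle it was 45151, 37223, 42849.6 and 47784 TPM in W/W livers, 18435, 7968, 6480.2 and 14910.1 TPM in W/F and 6919, 8519, 5589.6 and 3404 TPM in F/F. Every W/W liver on vehicle was above every W/F and F/F liver on vehicle. With T0901317 it was 12874, 4517, 17269 and 10732 TPM in W/W livers, 24827, 12722, 43014 and 38616 TPM in W/F and 17330.2, 18509, 15467 and 16873 TPM in F/F. With the agonist the W/W livers had the lowest mean of the 3 genotypes, although their highest liver overlapped both others, and after rescaling their mean of 13664.5 TPM was close to that of F/F livers, 14154.6 TPM.

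**Figure D1:**
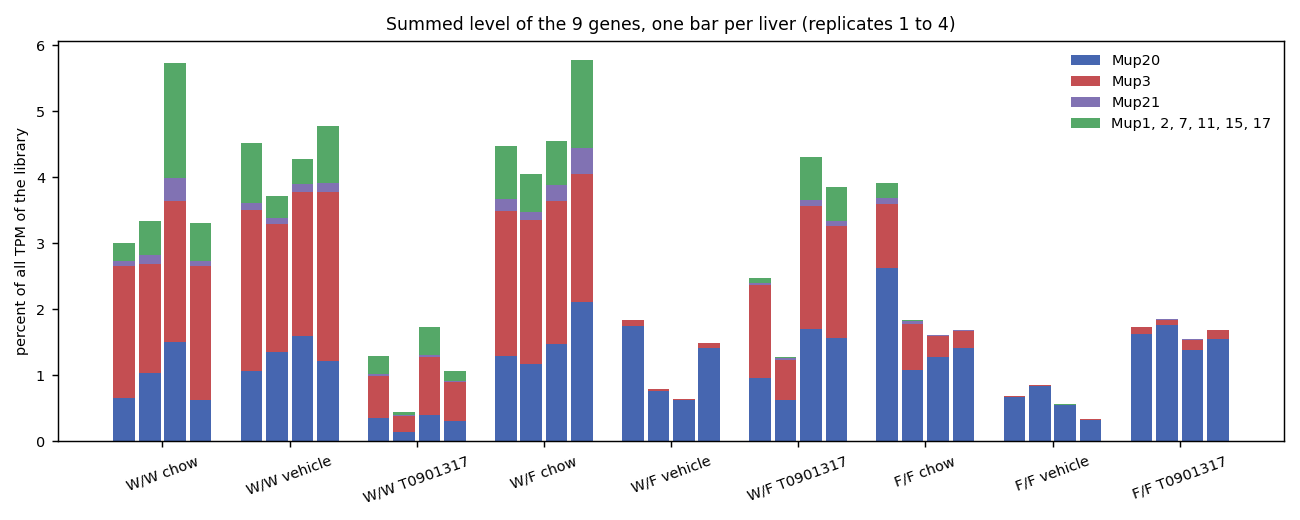
Summed TPM of the 9 Mup genes in each of the 36 livers as a percentage of all TPM (vertical axis), 1 stacked bar per liver, grouped by genotype and treatment, with Mup20, Mup3, Mup21 and the sum of the other 6 members in separate colours. Mup20 makes up almost the whole bar in F/F livers on vehicle or with T0901317 and in W/F livers on vehicle, whereas Mup3 is the largest part on average in W/W livers.

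Ordered by group mean, the sum was 47146 TPM in W/F chow, 43252 in W/W vehicle, 38447 in W/W chow, 29795 in W/F T0901317, 22634 in F/F chow, 17045 in F/F T0901317, 11948 in W/F vehicle, 11348 in W/W T0901317 and 6108 in F/F vehicle. All neighbours in this order overlapped in their ranges over the 4 livers. The mean of F/F livers was 1.7-fold lower than that of W/W on chow, 7.08-fold lower on vehicle and 1.5-fold higher with T0901317. After the libraries were rescaled to a common median gene, the 3 values were 2.21-fold lower, 13.0-fold lower and 1.04-fold higher, so the difference with T0901317 was nearly gone. Without Mup20, the F/F mean was lower in each treatment, by 4.37-fold on chow, 228-fold on vehicle and 6.73-fold with T0901317. The direction of the family sum with T0901317 therefore rested on Mup20. In these whole-liver samples a smaller share of hepatocytes and less Mup RNA per hepatocyte cannot be told apart.

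The make-up of the family also differed between groups. Mup20 supplied 24.6 ± 5.22% of the family sum in W/W livers on chow, 30.6 ± 7.16% on vehicle and 27.7 ± 3.46% with T0901317. In F/F livers it supplied 72.3 ± 11.4%, 97.6 ± 0.747% and 92.6 ± 2.66%. Heterozygotes lay near the controls on chow, at 31.7 ± 3.58%, near the homozygous mutants on vehicle, at 95.4 ± 0.518%, and at 42.0 ± 4.74% with T0901317. The Mup20 share of every F/F liver exceeded that of every W/W liver in the same treatment. The ratio of Mup3 to Mup20 ran the other way. For every 100 Mup20 transcripts there were 232 ± 94.0 of Mup3 in W/W chow livers, 35.8 ± 20.5 in F/F chow and 7.73 ± 3.13 in F/F T0901317.

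Mup20, the darcin gene, was among the most abundant transcripts of the liver in all 9 groups and was the only member whose mean in F/F livers on chow or with T0901317 was not below that of W/W. On chow its level was 6560.01, 10349.6, 15074 and 6319.6 TPM in W/W livers, 13008, 11716, 14684 and 21126 in W/F and 26344, 10783, 12840 and 14132 in F/F. The 3 genotypes overlapped, and Mup20 ranked 3rd to 15th of all genes in the F/F chow livers and 9th to 22nd in W/W. With T0901317 it was 3558, 1431, 4019.9 and 3047 TPM in W/W livers, 9589, 6233, 17094 and 15683 in W/F and 16340.1, 17615, 13813 and 15459.7 in F/F. All W/W livers given the agonist were below all W/F and all F/F livers, and Mup20 ranked 29th to 78th in them against 5th to 10th in F/F. On vehicle, where no test was made, it was 10596, 13498, 15936 and 12126 TPM in W/W livers, 17486, 7646, 6196 and 14165 in W/F and 6781, 8383, 5446 and 3291 in F/F. Only F/F livers on vehicle lay wholly below W/W.

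Mup3, the member with the highest mean in W/W livers in every treatment, is a peripheral gene of the cluster and little affected by shared reads. On chow its level was 19998, 16514, 21358 and 20234 TPM in W/W livers, 21894, 21884, 21768 and 19315 in W/F and 9592, 6931, 3076 and 2597 in F/F. The F/F livers did not overlap the others, and the means of F/F and W/W were 5549 ± 3321 and 19526 ± 2094 TPM. With T0901317 its level was 6419.7, 2469.8, 8807 and 5929.9 TPM in W/W livers, 14028, 6118, 18548 and 16977 in W/F and 925, 839.8, 1603 and 1376 in F/F. Again every F/F liver was below every other. On vehicle it was 24512, 19414, 21873 and 25614 TPM in W/W livers, 897, 293, 256 and 709 in W/F and 104, 116, 113 and 75.8 in F/F. These 3 groups were fully separated, and Mup3 ranked 1170th to 1771st in F/F vehicle livers against 3rd to 7th in W/W chow.

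Mup21, the nearest relative of Mup3 among the members by shared transcript sequence, was less abundant and showed the same order of genotypes. On chow its level was 806, 1308, 3535 and 763 TPM in W/W livers, 1889, 1089, 2326 and 3998 in W/F and 987, 475, 143 and 108 in F/F. The highest F/F liver, replicate 1, overlapped the W/W livers. With T0901317 it was 214, 94.6, 222 and 208 TPM in W/W, 358, 213, 876 and 689 in W/F and 57.0, 48.8, 36.1 and 32.0 in F/F, without overlap between F/F and either other genotype. On vehicle it was 954 to 1474 TPM in W/W, 11.5 to 43.2 in W/F and 12.2 to 15.5 in F/F.

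Among the 6 members with long shared stretches, Mup7 was the most abundant on chow. Its level on chow was 1783, 4495, 7864 and 3906 TPM in W/W livers, 6368, 3712, 4301 and 6294 in W/F and 1451, 88.1, 31.8 and 26.5 in F/F. The F/F liver of replicate 1 stood far above the other 3 F/F livers, yet below every W/W liver. With T0901317 Mup7 was 1114, 63.7, 1790.1 and 609 TPM in W/W, 305, 52.9, 3835 and 2977 in W/F and 2.19, 2.02, 5.70 and 1.69 in F/F. On vehicle it was 5455, 2096, 2436 and 4866 TPM in W/W, 3.40, 4.44, 7.88 and 4.57 in W/F and 10.9, 4.35, 9.38 and 12.3 in F/F. F/F livers with T0901317 thus held Mup7 at the level of a weakly expressed gene, far from both other genotypes.

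Mup15 and Mup17, whose promoter windows are printed above, behaved alike. Mup15 on chow was 406, 295, 5579 and 916 TPM in W/W livers, 699.8, 1109, 1291 and 4847 in W/F and 324, 6.48, 10.9 and 6.21 in F/F. Mup17 on chow was 272, 113, 2636 and 679 TPM in W/W livers, 333, 622, 577 and 1228 in W/F and 146, 5.01, 8.66 and 7.25 in F/F. In both genes replicate 3 of W/W and replicate 1 of F/F stood above the rest of their groups, and that F/F liver was the only one to reach the W/W range. With T0901317 Mup15 was 1.97, 1.19, 3.06 and 2.09 TPM in F/F livers, against 229 to 1211 in W/W and 33.0 to 1158 in W/F. Mup17 with T0901317 was 2.68, 1.45, 2.69 and 0.894 TPM in F/F, against 199.9 to 1051 in W/W and 28.0 to 949.6 in W/F. On vehicle both genes stayed between 0.507 and 6.71 TPM in all W/F and F/F livers, and between 500.0 and 1778 TPM in W/W.

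Mup11 on chow was 151, 289.7, 1109.6 and 244 TPM in W/W livers, 475, 395, 498 and 946 in W/F and 327, 30.0, 7.68 and 6.47 in F/F, and again the F/F liver of replicate 1 reached the W/W range. With T0901317 it was 0.787, 0.466, 1.01 and 0.234 TPM in F/F, 20.6 to 142 in W/W and 38.1 to 506 in W/F. Mup1 and Mup2 were the least abundant members on chow. Mup1 on chow was 15.3, 19.7, 73.5 and 24.1 TPM in W/W livers, 31.1, 17.8, 22.7 and 44.2 in W/F and 7.73, 1.7, 0.661 and 0.342 in F/F, and Mup2 on chow was 23.5, 16.6, 31.6 and 25.5, 21.7, 18.5, 16.0 and 16.0 and 19.1, 6.22, 3.83 and 4.22 TPM. All 4 F/F livers were below all W/W livers for Mup1 but not for Mup2. With T0901317, Mup1 was 0.138, 0, 0.572 and 0.116 TPM in F/F livers against 1.23 to 8.28 in W/W, and Mup2 was 0.655, 0.458, 0.848 and 0.758 TPM in F/F against 7.53 to 18.0 in W/W. The Mup1 values of these F/F livers rest on 3, 0, 8 and 2 reads, of which the 0 allows up to 3.

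**Figure D2:**
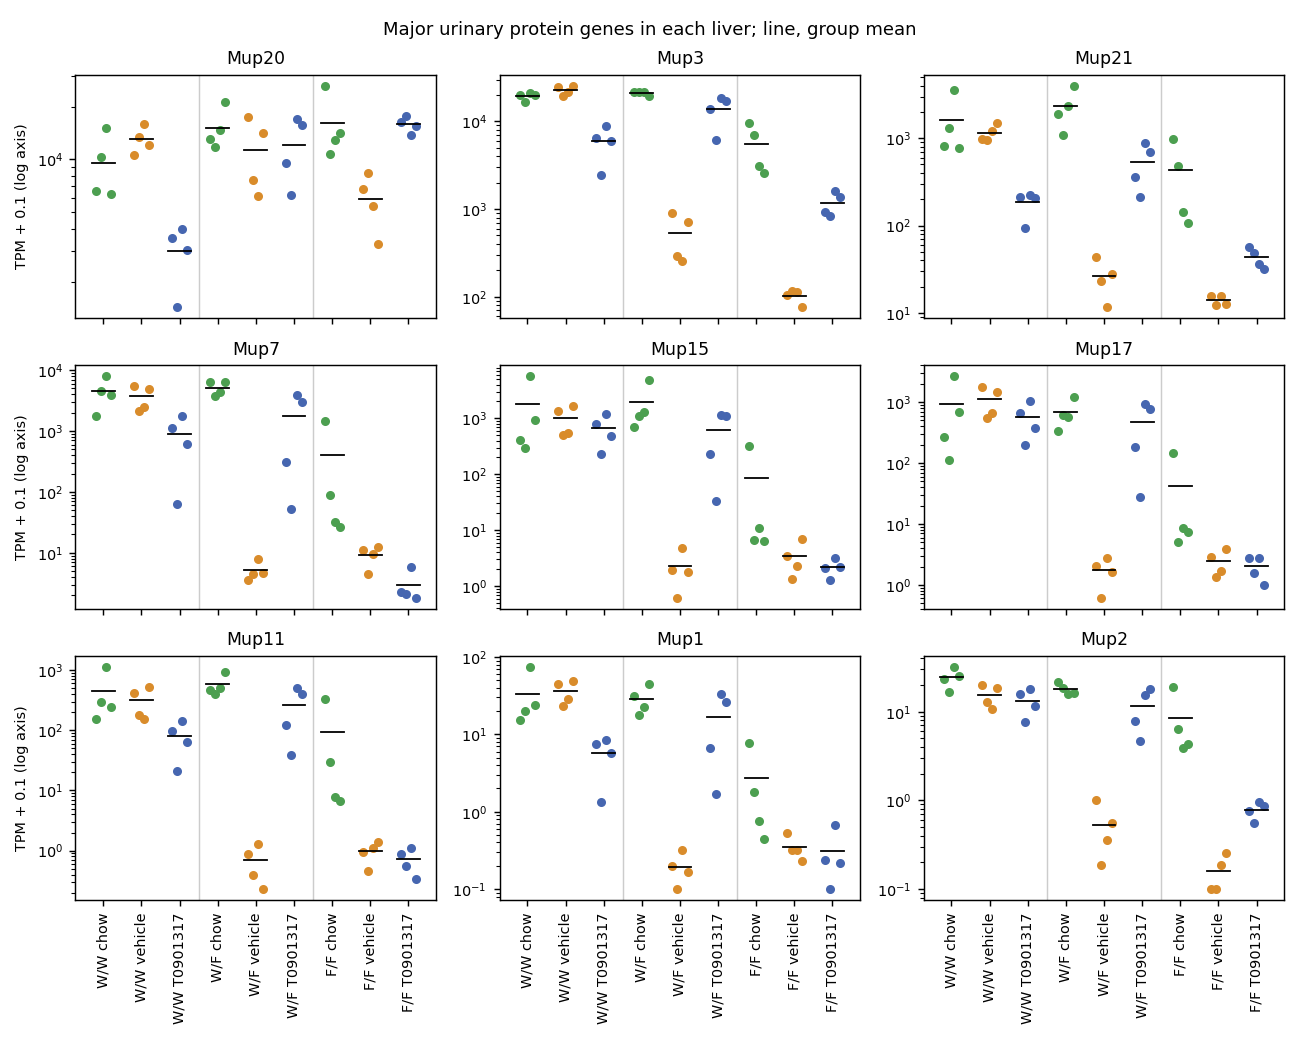
TPM + 0.1 of each of the 9 members on a log axis (vertical) in the 36 livers, 1 panel per gene, with groups ordered by genotype along the horizontal axis. Points are single livers and the line is the group mean, with chow in green, vehicle in orange and T0901317 in blue. In every panel but that of Mup20, the F/F livers with T0901317 lie below all W/W and W/F livers with T0901317.

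The question of whether the genotype alone changed the members, without diet or agonist, was addressed by the chow mice. Of the 9 members, 8 fell in F/F against W/W livers and none rose, where 3.65% of all genes tested fell and 43.0% rose (limma, two-sided, Benjamini-Hochberg adjusted p under 0.05 over all genes). The median log2 fold change, fitted on log2(TPM + 1) as all fold changes below are, was -3.39 over the members and 0.29 over all genes. Mup15 changed by -5.37 (SE 1.02), limma adjusted p = 0.000106, Mup7 by -5.25 (SE 1.05), adjusted p = 0.000198, and Mup17 by -4.90 (SE 0.91), adjusted p = 8.78e-05. Mup11 changed by -3.54 (SE 0.82) and Mup1 by -3.39 (SE 0.59), with adjusted p of 0.000914 and 3.65e-05 in limma. The falls of the less similar genes were smaller, -2.02 (SE 0.40) for Mup3 (limma adjusted p = 0.000163) and -2.15 (SE 0.54) for Mup21 (adjusted p = 0.0019), and that of Mup2 was -1.67 (SE 0.34) (adjusted p = 0.000269). The exception was Mup20, at 0.75 (SE 0.36) with a limma adjusted p of 0.0911. For 3 members, Mup1, Mup3 and Mup7, the F/F and W/W livers did not overlap, against 2.36% of all genes with F/F wholly lower. The summed level of Mup1, Mup2, Mup7, Mup11, Mup15 and Mup17 on chow was 632 ± 1096 TPM in F/F and 7743 ± 6513 TPM in W/W livers. The F/F livers ranged from 51.0 to 2276 TPM with a median of 101 TPM, and the W/W livers from 2652 to 17294 TPM.

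Without F/F chow replicate 1, the 8 members were still called lower and most values were larger, at -6.68 for Mup15, -6.52 for Mup7, -5.96 for Mup17 and -4.71 for Mup11. Mup20 was called higher, at 1.00 (limma adjusted p = 0.0346), when W/W chow replicate 3 was left out. After the libraries were rescaled to a common median gene it was at 0.36 (limma adjusted p = 0.514). Mup21 was not called when only the chow F/F and W/W groups were fitted (adjusted p = 0.0596).

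A single mutant allele did not shift the members on chow to a detectable degree. None of the 9 was called in W/F against W/W on chow, where limma called 0.487% of all genes in either direction, and 0 of the 9 had an unadjusted p under 0.05. Fitted differences ran from -0.39 to 0.75 with a median of 0.35, and with 4 livers a group and standard errors of up to 1.05 these do not show that the genotypes were alike. Homozygotes against heterozygotes on chow gave the same count as against controls, with 8 of 9 members lower where 3.43% of all genes were. Their median was -3.40, and Mup20 was at 0.03, which turned to -0.32 after the libraries were rescaled to a common median gene.

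With T0901317 the members split most clearly. In F/F against W/W livers 8 members were lower, where 6.96% of all genes were, and Mup20 was higher, where 56.3% of all genes were. All 9 were free of overlap between the groups, 8 lower against 6.27% of all genes and 1 higher against 50.4%. The largest fall was that of Mup15, at -7.57 (SE 1.02) with a limma adjusted p of 2.89e-07, followed by Mup17 at -7.41 (SE 0.91) (adjusted p = 7.08e-08) and Mup7 at -7.19 (SE 1.05) (adjusted p = 1.06e-06). Mup11 changed by -5.38 (SE 0.82) and Mup2 by -3.01 (SE 0.34), with limma adjusted p of 2.09e-06 and 1.86e-08. Mup3 changed by -2.23 (SE 0.40), Mup21 by -2.02 (SE 0.54) and Mup1 by -2.29 (SE 0.59), with adjusted p of 1.83e-05, 0.00184 and 0.00121. The log2 changes of Mup1, Mup2 and Mup11 understate the folds, since their F/F means lie under the pseudocount of 1 TPM. Mup20 rose by 2.49 (SE 0.36) (limma adjusted p = 1.13e-06), and by 1.96 after rescaling. The sum over Mup1, Mup2, Mup7, Mup11, Mup15 and Mup17 was 8.42 ± 3.86 TPM in F/F and 2243 ± 1586 TPM in W/W livers. These means differed 267-fold. The sum still depends in part on how reads were shared out, since exon lengths run from 925 bases for Mup15 to 1584 for Mup1. Reads shared with other Mup genes can also affect it.

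Heterozygotes given the agonist differed from controls in few members. In W/F against W/W with T0901317 none of the 9 was called lower and 2 were called higher, where 6.23% of all genes were lower and 3.65% higher, and the other members, not called, ran from -0.94 for Mup17 to 1.41 for Mup11. Mup20 rose by 2.00 (SE 0.36) (limma adjusted p = 0.000277), and its groups did not overlap, which held for 5.88% of all genes in that direction. Mup3 rose by 1.26 (SE 0.40) (adjusted p = 0.0389), with overlapping groups. The Mup3 call was lost in 6 of 8 fits that left out 1 library, namely W/F T0901317 replicates 1, 3 and 4 and W/W T0901317 replicates 1, 2 and 4, with values of 0.88 to 1.34. It was also lost after rescaling (adjusted p = 0.0514), with no filter (0.0844) and when only the 2 groups were fitted (0.18). Homozygotes were below heterozygotes with T0901317 for 8 members, where 4.08% of all genes were lower, from -2.73 for Mup2 to -7.50 for Mup7. Mup20 was at 0.48 in that comparison (adjusted p = 0.251) and at -0.06 after rescaling.

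The mice given T0901317 on the MASH diet were also set against the chow mice of the same genotype, a comparison in which agonist, diet, gavage and cohort change together and cannot be told apart. In W/W livers 6 members were lower and none higher, where 12.8% of all genes were lower. These were Mup7 at -2.90 (SE 1.05), Mup21 at -2.89 (SE 0.54), Mup11 at -2.32 (SE 0.82), Mup1 at -2.27 (SE 0.59), Mup3 at -1.86 (SE 0.40) and Mup20 at -1.67 (SE 0.36), with limma adjusted p from 0.000195 for Mup21 to 0.0437 for Mup7. Mup2, Mup15 and Mup17 were not called, at -0.87, -0.63 and -0.02, and the value of Mup17 turned to 0.04 after rescaling. The calls of Mup7 and Mup11 were each lost when W/W chow replicates 2, 3 or 4 or W/W T0901317 replicates 2 or 4 were left out, and the Mup7 value nearest to 0, -1.89, came without T0901317 replicate 2. Both calls were also lost with no filter (adjusted p = 0.0917 for Mup7 and 0.0832 for Mup11), with array weights (0.0557 and 0.063) and when only the 2 groups were fitted (0.0804 and 0.065).

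In W/F livers 2 members were lower with T0901317 than on chow, where 18.7% of all genes were: Mup7 at -2.93 (SE 1.05) (limma adjusted p = 0.0339) and Mup21 at -2.17 (SE 0.54) (adjusted p = 0.00282). The Mup7 call was lost without W/F chow replicates 1, 3 or 4 or W/F T0901317 replicates 1 or 2, with -1.73 without T0901317 replicate 2, and also with no filter (adjusted p = 0.0734), with array weights (-1.29, adjusted p = 0.317) and when only the 2 groups were fitted (adjusted p = 0.154). In F/F livers 7 members were lower, where 12.8% of all genes were, led by Mup7 at -4.84 (SE 1.05) and Mup11 at -4.16 (SE 0.82) (limma adjusted p = 0.000676 and 0.000258), and all 7 had non-overlapping groups against 11.5% of all genes. Mup1 was at -1.18 (adjusted p = 0.114) and Mup20 at 0.06 (adjusted p = 0.912), the latter at -0.02 after rescaling. Mup1, which lies under the pseudocount in those livers, was called lower with a pseudocount of 0.1 TPM (-2.60, adjusted p = 0.0115). The calls of Mup15 and Mup17 in F/F were lost without F/F chow replicate 1, the highest liver of its group for both genes, at -1.52 and -1.47, and with no filter (adjusted p = 0.0567 and 0.0577).

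Mup20 was the only member called for a difference between genotypes in this change from chow to T0901317. The W/W change was -1.67 and the F/F change 0.06, a difference of 1.74 (SE 0.52) with a limma adjusted p of 0.0305, where 9.22% of all genes were called in either direction and 5.81% with a positive difference. This call was lost after rescaling (1.60, adjusted p = 0.0542), with no filter (adjusted p = 0.068) and without any 1 of 7 libraries, F/F chow replicates 2 and 3, F/F T0901317 replicates 1 and 2, W/W chow replicates 2 and 3 and W/W T0901317 replicate 2, with values of 1.41 to 1.72. Mup2 had a difference of -1.35 that was not called (adjusted p = 0.076). No member was called for the difference between W/F and W/W, where 2.54% of all genes were in either direction, and 1 member, Mup20, had an unadjusted p under 0.05 in limma.

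The vehicle groups, which chose the members, are given for completeness. In F/F against W/W on vehicle 9 of 9 members were lower without overlap, which held for 6.09% of all genes, and in W/F against W/W 8 of 9 were, against 5.67%. Fitted differences for F/F ran from -1.19 for Mup20 to -8.46 for Mup7, with -7.80 for Mup3 and -6.26 for Mup21. For W/F they were -0.31 for Mup20, -5.60 for Mup3, -5.52 for Mup21 and -9.18 for Mup7. After rescaling, Mup20 on vehicle was at -2.06 in F/F and at -0.97 in W/F against W/W. No fold is given for Mup1 in W/F, with 2, 0, 3 and 1 reads in the 4 livers, nor for Mup2 in F/F, with 0, 0, 1 and 2 reads. Between F/F and W/F on vehicle 1 member, Mup3, did not overlap, 2.20 lower on the log2 scale in F/F where 2.97% of all genes were wholly lower.

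Within genotypes, vehicle livers of W/W overlapped their chow counterparts for all 9 members, with 12.0% of all genes wholly lower and 3.74% wholly higher. In W/F livers 8 members were wholly lower on vehicle than on chow, against 6.44% of all genes, and in F/F livers 7 were, against 8.15%, all but Mup1 and Mup15. Set against vehicle, T0901317 livers were wholly lower for 6 members in W/W, against 4.42% of all genes, wholly higher for 8 members in W/F, against 5.49%, and wholly higher for 4 members in F/F, against 4.11%. The 4 were Mup2, Mup3, Mup20 and Mup21, and Mup3 in F/F livers stood at 102 ± 18.4 TPM on vehicle and 1186 ± 364 TPM with T0901317. These comparisons share the vehicle mice with those above.

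The other Mup rows in the table gave a picture of the whole cluster, although many share sequence with the members and are not independent of them. Of 12 further protein-coding Mup genes tested, 8 were lower in F/F than W/W on chow and none higher, and 11 were lower and none higher with T0901317, where 3.65% and 6.96% of all genes were lower, with medians of -2.0 and -2.81. The row Gm21320 (named Mup22 in GENCODE M21) is among them, at -0.81 (limma adjusted p = 0.116) on chow and -2.78 (adjusted p = 2.07e-06) with T0901317. Mup14 changed by -3.78 and -5.27 and Mup16 by -4.17 and -4.18. The exception was Mup5, a barely expressed gene, at 0.44 with T0901317 (adjusted p = 0.186). Of 16 Mup pseudogenes tested, 12 were lower on chow and 12 with T0901317, against the same shares of all genes, and 1 was higher with T0901317. That one was Mup-ps19, which shares sequence with Mup20, at 2.30 (adjusted p = 2.09e-05) after 0.88 on chow (adjusted p = 0.0789).

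Without rescaling, no gene flanking the cluster was called lower in F/F against W/W. The median of all genes was 0.29 on chow and 0.43 with T0901317, and rescaled values are not given for these genes. On the Mup7 side, Inip, Snx30 and Gm12543 were at 0.20, 0.53 and 0.10 on chow and at 0.50, 0.60 and 0.71 with T0901317. On the Mup21 side, Slc31a2, a copper transporter gene, was at 0.70 and 1.16 and Fkbp15 at 0.33 and 0.34. Slc31a1 was at 0.07 and -0.06 (limma adjusted p = 0.562 and 0.595), below the median of all genes. Mup20 itself lies 33.2 kb from Mup3, one of the genes that fell, counted between the lower coordinates of both.

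**Figure D3:**
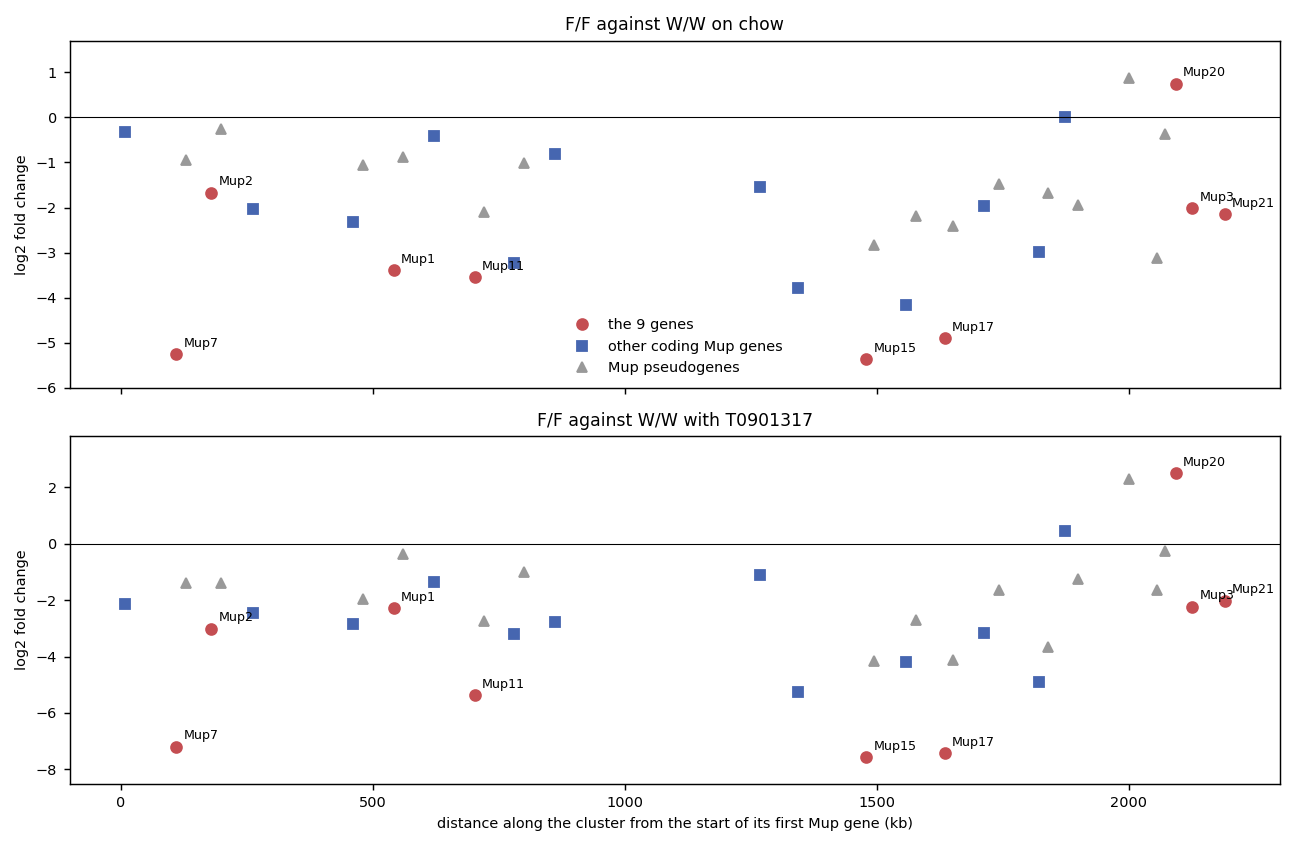
Fitted log2 fold change of F/F against W/W livers (vertical axis) on chow (top) and with T0901317 (bottom) for each Mup gene, plotted by distance in kb from the start of the gene at one end of the cluster (horizontal axis). Red circles are the 9 members, blue squares other protein-coding Mup genes and grey triangles pseudogenes. Mup20 is the only red circle above 0 in either panel.

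Over the 36 livers, the log2 levels of the 8 members other than Mup20 were correlated with each other at Pearson r from 0.860 to 0.992, whereas Mup20 was correlated with them at r from -0.00710 to 0.337. Over the 24 livers without vehicle, whose mice chose the members, these ranges were 0.770 to 0.992 and -0.241 to 0.228. All of these values describe groups of 4 livers, so that they mostly carry the differences between groups, and shared reads add to those among Mup1, Mup2, Mup7, Mup11, Mup15 and Mup17. Outside the family, the genes whose pattern was most like the log2 family sum over the 36 livers were Serpina1c (r = 0.924), Nat8f1 (0.910), Ces3a (0.905), Aspdh (0.902), Cyp2d9 (0.885), Baat (0.884), Cyp4f14 (0.881), Slc22a7 (0.875), Il1rap (0.871) and Cyp2d10 (0.867). This ranking draws on the vehicle livers, and without them r ran from 0.722 for Cyp2d10 to 0.889 for Serpina1c over the same 10 genes. Serpina1c encodes an alpha-1 antitrypsin and is also on the hepatocyte marker list, Baat conjugates bile acids, and Cyp2d9 is a male-biased steroid hydroxylase. Taken singly over the 36 livers, Mup7 was most like Hsd3b5 (r = 0.987), a male-biased steroid enzyme gene. Mup3 was most like C8g (0.978), a gene for a complement subunit that is itself a lipocalin, and Mup20 most like Gstp1 (0.730). Without the vehicle livers these r were 0.984, 0.917 and 0.819. Other genes, such as Serpina1d (0.965), were then closer to Mup3 than C8g, and Vtn (0.819) was about as close to Mup20 as Gstp1. The single-gene comparisons and the values without vehicle livers were added after the values had been seen.

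Other male-biased liver genes fell in the same comparison. Of 16 such genes, 11 were lower and none higher in F/F against W/W on chow, and 10 were lower and none higher with T0901317. Of all genes, 3.65% and 6.96% were lower and 43.0% and 56.3% higher. The medians of the list were -1.27 and -1.68 against 0.29 and 0.43 over all genes. Hsd3b5 changed by -5.39 (SE 0.90) on chow (limma adjusted p = 2.09e-05) and -5.02 (SE 0.90) with T0901317 (adjusted p = 1.97e-05). Cyp4a12a, an arachidonic acid hydroxylase gene, changed by -2.29 (SE 0.37) and -4.94 (SE 0.37) (adjusted p = 1.41e-05 and 8.86e-12), and Elovl3, which elongates very long chain fatty acids, by -1.46 (SE 0.56) and -5.05 (SE 0.56) (adjusted p = 0.0334 and 1.29e-08). The Elovl3 call on chow was lost with a pseudocount of 0.1 (adjusted p = 0.0691), with no filter (0.068) and without F/F chow replicates 3 or 4 or W/W chow replicates 1, 3 or 4 (-1.52 to -1.07). Cyp2d9 was not called, at -0.20 (adjusted p = 0.52) and -0.41 (adjusted p = 0.145), but with T0901317 it was called lower after rescaling (-0.93, adjusted p = 0.00481), with array weights (-0.53, adjusted p = 0.0369) and without W/W T0901317 replicate 2 (-0.72, adjusted p = 0.00524).

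Of 16 female-biased genes, 10 could be tested and 4 were higher on chow, with none lower, and 5 were higher and 3 lower with T0901317. Of all genes, 43.0% and 56.3% were higher and 3.65% and 6.96% lower. Cyp2b9 was at 4.56 (SE 0.89) on chow (limma adjusted p = 0.000149) but at 1.15 with T0901317 (adjusted p = 0.261). Cux2, a female-biased transcription factor gene, was too low to test, with means of 0.162 TPM in W/W and 0.251 TPM in F/F chow livers. After rescaling, 2 rather than 4 were higher on chow and 3 rather than 5 with T0901317, and the counts lower were unchanged. Of all genes, 2644 rather than 7157 were then called higher on chow and 4026 rather than 9359 with T0901317.

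The growth hormone list of 21 genes, from receptor to regulators of male-biased genes, was called in part. On chow 4 were higher and 1 lower, where 43.0% of all genes were higher and 3.65% lower, and with T0901317 7 were higher and 2 lower, against 56.3% and 6.96%. After rescaling these became 1 higher and 7 lower on chow and 2 higher and 8 lower with T0901317. The direction of this list thus depended on the scaling, and the shares of all genes changed with it too. Rescaled, 4978 of all genes tested were called on chow, 2644 of them higher, and 7804 with T0901317, 4026 of them higher. The rescaled counts of the list therefore cannot be set against the shares above. The growth hormone receptor gene Ghr fell by 0.50 on chow and by 0.67 with T0901317 on the log2 scale (limma adjusted p = 0.00508 and 0.000167). Socs2 and Socs3, cytokine-induced inhibitors of JAK-STAT signalling, rose by 1.30 and 1.11 on chow (adjusted p = 0.0137 and 0.025) and by 1.84 and 1.45 with T0901317, but after rescaling neither was called on chow (0.97 and 0.76, adjusted p = 0.0939 and 0.172) nor Socs3 with T0901317 (0.98, adjusted p = 0.0513). The Socs2 call on chow was also lost without W/W chow replicate 3 (0.99), and that of Socs3 with no filter (adjusted p = 0.0515) and without F/F chow replicate 2 or W/W chow replicates 2, 3 or 4 (0.76 to 1.06). Stat5b was at 0.34 on chow (adjusted p = 0.0565), or -0.04 rescaled, and rose by 0.50 with T0901317 (adjusted p = 0.00363), a change that was -0.00 rescaled. Igf1 was at -0.03 and 0.06 (adjusted p = 0.871 and 0.69), or -0.41 and -0.46 rescaled (adjusted p = 0.0404 and 0.0127).

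Cish was at 1.04 and -0.08 and Bcl6, a repressor of male-biased and female-biased liver genes, at -0.54 and 0.57, with neither called in limma (adjusted p of 0.207 and 0.925 for Cish and of 0.389 and 0.325 for Bcl6). Without F/F chow replicate 1 both were called on chow, Cish higher (1.71, adjusted p = 0.038) and Bcl6 lower (-1.17, adjusted p = 0.0366). Zhx2, a regulator of Mup genes, was at -0.19 on chow (adjusted p = 0.164) and rose by 0.54 with T0901317 (adjusted p = 0.000102). Rescaled, Zhx2 was called lower on chow (-0.53, adjusted p = 0.000483) and not called with T0901317 (0.05, adjusted p = 0.761). Hnf4a, the hepatocyte nuclear receptor gene, was at 0.23 and 0.16 and not called in limma (adjusted p of 0.188 and 0.346), or at -0.16 and -0.37 rescaled, where the second was called lower (adjusted p of 0.444 and 0.03).

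Abundant secreted hepatocyte proteins and other lipocalins give a yardstick for the size of the Mup changes. Of 22 genes for abundant secreted proteins, 3 were higher and 4 lower on chow (median -0.08), and 8 were higher and 8 lower with T0901317 (median 0.02). The shares of all genes were 43.0% and 56.3% higher and 3.65% and 6.96% lower. Rescaling turned the counts of this list to 0 higher and 13 lower on chow and 4 higher and 12 lower with T0901317. Of all genes, 4978 were called on chow after rescaling, 2644 of them higher, and 7804 with T0901317, 4026 of them higher. Albumin (Alb) was at -0.18 on chow (limma adjusted p = 0.463) and fell by 0.67 with T0901317 (adjusted p = 0.00339, or 0.0511 with no filter). Apoa1 was at -0.27 (adjusted p = 0.0516) on chow and 0.36 (adjusted p = 0.00656, or 0.0523 with no filter) with T0901317, or at -0.65 (adjusted p = 0.00108) and -0.17 (adjusted p = 0.372) rescaled. The largest called changes on chow in this list were those of Apoc1, an apolipoprotein gene known as an LXR target, at -1.64 (adjusted p = 6.39e-12), and Fabp1 at -1.05 (adjusted p = 0.00036). Of 10 lipocalin genes tested, 1 was higher and none lower on chow and 4 were higher and none lower with T0901317, where 43.0% and 56.3% of all genes were higher. The one on chow was Lcn2, an acute phase protein gene, at 4.52 (SE 1.05) (adjusted p = 0.000922). After rescaling, 1 lipocalin gene was higher and 1 lower on chow, and 3 were higher and 2 lower with T0901317.

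**Figure D4:**
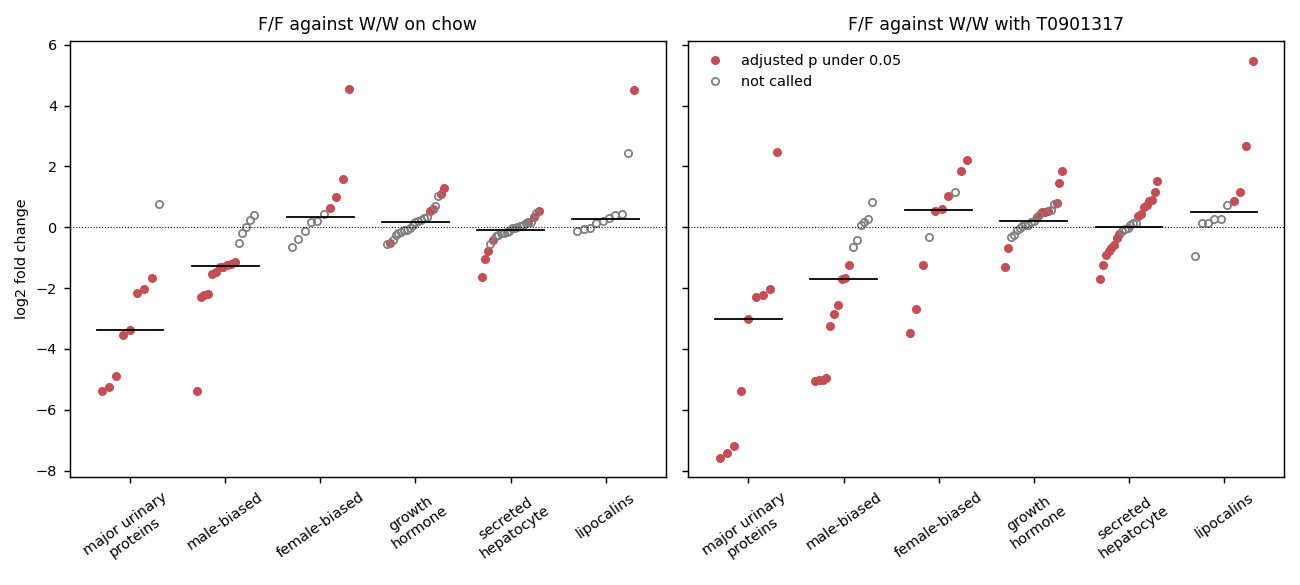
Fitted log2 fold change (vertical axis) of F/F against W/W livers on chow (left) and with T0901317 (right) for the 9 members and the genes of 5 lists (columns). Filled points had a limma adjusted p under 0.05, open points did not, and the line is the median of each column. The members have the lowest median in both comparisons, and the male-biased genes have the next lowest.

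Markers of other liver cells moved with the genotype, and their part in the Mup differences was not tested. In F/F against W/W on chow 7 of 10 macrophage markers were higher and 3 lower, and 6 of 7 stellate cell markers and 5 of 5 bile duct markers were higher. Of all genes on chow, 43.0% were higher and 3.65% lower. With T0901317 the numbers were 7, 6 and 5 higher and 2 macrophage markers lower, where 56.3% of all genes were higher and 6.96% lower. Of neutrophil markers 2 of 5 were higher on chow, and with T0901317 4 were higher and 1 lower. None of 3 lymphocyte markers was called on chow and 1 was higher with T0901317. Of 5 endothelial markers 3 were higher on chow, or 0 rescaled, and with T0901317 1 was higher and 1 lower, or 0 and 4 rescaled. The summed macrophage level was 153 to 226 TPM in W/W and 497 to 795 TPM in F/F on chow, and 260 to 554 and 1510 to 2339 TPM with T0901317. That of stellate markers was 74.3 to 117 TPM in W/W and 308 to 624 TPM in F/F on chow, and that of bile duct markers 50.1 to 61.5 and 720 to 981 TPM. The 8 hepatocyte markers summed to 74791 to 113082 TPM in W/W and 72872 to 92820 TPM in F/F on chow, ranges that overlap, and 2 of the 8 were lower, or 5 rescaled. With T0901317 the hepatocyte sum was 80002 to 90657 TPM in W/W and 54856 to 73415 TPM in F/F, ranges that do not overlap. Of the 8 hepatocyte markers 4 were lower and 1 higher with T0901317, or 6 lower and none higher rescaled. Of all genes, 4978 were called on chow after rescaling, 2644 of them higher, and 7804 with T0901317, 4026 of them higher.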

How the data were processed

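PolyA RNA of 36 mouse livers was measured, 4 in each of 9 groups, with genotype, treatment and replicate number taken from the sample labels. The authors deposited 1 table of TPM, per its values, whose columns sum to 1000000 each, and no read counts were used. The submitters' processing notes name Trimmomatic 0.36, STAR 2.5.2b, featureCounts (Subread 1.5.2) and the build GRCm38 (mm10), and the treatment of reads with several matches is not given in the sources used here. Library depth was recovered from the spacing of TPM between 0.02 and 0.4, given exon lengths, and 93.7% to 95.7% of genes under 20 reads then fell no more than 0.1 from a whole read, where 20% would by chance. Depth was 18.1 to 35.8 M reads per library (M, 1000000), with a median of 23.9 M. Limits from reads cover counting error only.

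Genes that reached 1 TPM in 4 or more libraries (16638 of 49315) were fitted as log2(TPM + 1) with limma 3.58.1 (trend, moderated variances, R 4.3.3), 1 mean for each of the 9 groups, all 36 libraries in 1 fit, and two-sided tests adjusted by Benjamini-Hochberg over all 16638 genes at 0.05. The fit was tested on simulated data. Tests were made for 11 contrasts that compare no vehicle mice, although the vehicle mice entered the estimate of spread. The 9 contrasts with vehicle mice were described only. The members, the gene lists and the tests were chosen with earlier results of these data known. Named genes were all 9 members, the other Mup genes with a group mean of at least 1 TPM, a fixed set of growth hormone, sex-biased and hepatocyte genes, the 2 called genes of each list with the largest change on chow, and the 10 genes most correlated with the family sum. Of the other Mup genes only some are named and the rest are counted, and likewise for the markers, and some named by the rule are not reported here.

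For the rescaled values, the TPM of a library were divided by its median ratio to the geometric means of the 14786 genes above 0 in every library. Other alternatives were a pseudocount of 0.1, a filter of 5 TPM, no filter, array weights, a replicate block, a fit on the compared groups alone, and leaving out each library. Sequences of 75 bases were compared between GENCODE M21 transcripts, and promoters were taken from RefSeq on GRCm38.p6. Python 3.11.15, pandas 2.3.3, numpy 2.4.6, Biopython 1.88 and matplotlib 3.10.9 were used.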

Additional observations from a re-analysis of the deposited data

Results flagged for a closer look

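In 14 of 90 groups of 4 livers, the farthest liver stood apart from the rest by a gap that exceeds Dixon's 95% limit. For normally distributed values chance alone gives this in about 1 in 20 groups. The limit was applied to TPM without logs, and the 90 groups include the family sum, so the 14 cannot be set against that rate. F/F chow replicate 1 was the highest of its group for Mup2 (19.1 TPM), Mup7 (1451 TPM), Mup11 (327 TPM), Mup15 (324 TPM), Mup17 (146 TPM) and the family sum (39199 TPM). W/W chow replicate 3 was the highest of its group for Mup1 (73.5 TPM), Mup11 (1109.6 TPM), Mup15 (5579 TPM) and the family sum (57260.4 TPM). W/F chow replicate 4 was the highest for Mup15 (4847 TPM) and the lowest for Mup3 (19315 TPM). F/F T0901317 replicate 3 was the highest for Mup7 (5.70 TPM), and W/W T0901317 replicate 2 the lowest for Mup21 (94.6 TPM). Genes that share reads are not independent in this.

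The difference between T0901317 and chow differed between F/F and W/W for Mup20, by 1.74 on the log2 scale (limma adjusted p = 0.0305). Several members moved in opposite directions between genotypes when T0901317 was set against vehicle, with every liver of one group above or below every liver of the other, and these differences were not tested because the vehicle mice chose the members. W/F was higher and W/W lower for Mup7 (6.81 and -2.69, 9.50 apart on the log2 scale), Mup11 (6.84 and -2.07, 8.91 apart), Mup21 (4.23 and -2.69, 6.92 apart), Mup3 (4.77 and -2.08, 6.86 apart) and Mup1 (6.04 apart, a value that depends on the pseudocount, since Mup1 had 3 reads or fewer in each W/F vehicle liver). F/F was higher and W/W lower for Mup3 (3.49 and -2.08, 5.57 apart), Mup21 (1.55 and -2.69, 4.24 apart) and Mup20 (1.48 and -2.20, 3.68 apart). Mup20 in F/F against W/W was also higher with T0901317 (2.49) and lower on vehicle (-1.19), 3.68 apart.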

How the results depend on the processing

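The counts of members called in F/F against W/W on chow and with T0901317, in F/F against W/F on chow and with T0901317, in W/F against W/W on chow and in T0901317 against chow in W/W and in F/F stayed within 1.5 times of their value under all alternatives run. Over all main results, counts were held to that limit and mean family sums to the SD of their group. Under other settings 160 of 193 values stayed within these limits and 33 moved. With a library left out 220 stayed and 32 moved. Members called in W/F against W/W with T0901317 numbered 2, and 1 with no filter, after rescaling and with only the groups compared, 5 with array weights, and 1 to 4 with a library left out. In T0901317 against chow in W/F 2 were called, and 1 with no filter, with array weights and with only the groups compared, and 1 to 5 with a library left out. For the T0901317-to-chow difference of F/F minus W/W, 1 member was called, 2 with a pseudocount of 0.1 and with array weights, 0 with no filter and after rescaling (unadjusted p under 0.05 for 2 members in limma), and 0 to 2 with a library left out. In the growth hormone list on chow the 4 higher genes became 1 after rescaling and 2 to 5 with a library left out, and the 1 lower gene became 7 after rescaling, 2 with array weights or with only the groups compared, and 1 to 3 with a library left out. With T0901317 the 7 higher became 2 after rescaling, and the 2 lower became 8 after rescaling, 1 with no filter and 1 to 2 with a library left out. In the female-biased list the 4 higher on chow became 2 with a filter of 5 TPM and after rescaling, and the 5 higher with T0901317 became 1 with that filter and 3 after rescaling. In the secreted list the 4 lower on chow became 13 after rescaling and 7 with array weights, the 3 higher became 1 with no filter or with only the groups compared, 0 after rescaling and 1 to 3 with a library left out, and the 8 higher with T0901317 became 4 after rescaling. The 1 lipocalin higher on chow became 2 with the replicate block, 3 with array weights and with only the groups compared, and 1 to 2 with a library left out. Rescaling moved the mean family sum to 14154.6 TPM in F/F livers with T0901317 and to 54739 TPM in W/W livers on vehicle. It also changed the shares of all genes. Of the genes called in F/F against W/F, 91.7% were higher on chow and 52.8% rescaled. With T0901317 these were 93.5% and 53.2%. The causes were not tested.

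No member value whose sign turned was called with the settings used in the report, whereas Stat5b and Apoa1 with T0901317 were. After rescaling the signs that turned were those of Mup1 in W/F against W/W on chow (-0.02), Mup7 in the difference of W/F minus W/W (0.01, and 1.02 with array weights), Mup17 in T0901317 against chow in W/W (0.04, and 0.25 with array weights), Mup20 in F/F against W/F on chow (-0.32) and with T0901317 (-0.06) and in T0901317 against chow in F/F (-0.02), and Mup21 in the difference of F/F minus W/W (-0.01). In F/F against W/W they were Stat5b on chow (-0.04) and with T0901317 (-0.00), Igf1 with T0901317 (-0.46), Apoa1 with T0901317 (-0.17) and Hnf4a on chow (-0.16) and with T0901317 (-0.37). With array weights W/F against W/W with T0901317 turned for Mup2 (0.03), Mup15 (0.13) and Mup17 (0.03), as did Mup20 in T0901317 against chow in W/F (0.06), and with a pseudocount of 0.1 Mup1 in the difference of F/F minus W/W (-0.07). With a library left out, W/F against W/W on chow ranged from -0.25 to 0.48 for Mup1, -0.04 to 0.67 for Mup7 and -0.35 to 1.16 for Mup17. W/F against W/W with T0901317 ranged from -0.55 to 0.05 for Mup2, -0.70 to 1.52 for Mup7, -1.49 to 0.21 for Mup15 and -1.58 to 0.09 for Mup17. T0901317 against chow ranged in W/W from -1.16 to 0.25 for Mup15 and -0.72 to 0.79 for Mup17, and in F/F from -0.10 to 0.33 for Mup20, while F/F against W/F on chow ranged from -0.24 to 0.20 for Mup20. The difference of F/F minus W/W ranged from -0.58 to 0.12 for Mup3 and -0.35 to 0.71 for Mup21, and that of W/F minus W/W from -0.16 to 0.44 for Mup2 and -1.04 to 1.17 for Mup7. F/F against W/W ranged from -0.32 to 0.08 for Cish with T0901317 and -0.11 to 0.06 for Igf1 on chow.

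Same-numbered libraries deviated from their group means with a median correlation of 0.013 (-0.174 to 0.297), and 18 of 144 pairs were above 0.1. Only 11 of 36 libraries correlated best with their own number, so the numbers were not used as pairs. A batch shared by number was not tested. Replicate 1 was the deepest library in F/F chow (32.4 M reads), F/F T0901317 (35.8 M), W/F vehicle (34.5 M), W/W chow (29.1 M) and W/W T0901317 (34.3 M), but not in the other groups. With the replicate block 7 rather than 6 members were called in T0901317 against chow in W/W, through Mup2 (limma adjusted p = 0.0445), and Stat5b and Apoa1 were called on chow (adjusted p = 0.0399 and 0.038). Members with few reads, Mup1 and Mup2 in mutants on the MASH diet, are limited by depth.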
